A study of Mus musculus with 6 samples.

Results

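Conventional type 2 dendritic cells (cDC2) of Balb/c mouse skin were gated from single-cell libraries and compared between 3 OVA-sensitized libraries (EC-OVA) and 3 control libraries (EC-SAL). A barcode was a member when the MHC class II genes H2-Aa, H2-Ab1, H2-Eb1 and Cd74 together made up at least 1% of its unique molecular identifiers (UMIs, each a counted transcript) and Mgl2, Cd209a and Ccl17 together gave at least 2 UMIs. C1qa, C1qb and C1qc had to stay under 2 UMIs, Cd207 under 3, Ccr7 and Fscn1 together under 3, and Xcr1 and Clec9a at 0, which keeps out most macrophages, Langerhans cells, migratory dendritic cells and type 1 dendritic cells. The gate found 374 members among 25772 barcodes with at least 300 genes and at most 15% mitochondrial UMIs, and 38206 barcodes had been deposited. EC-OVA libraries 1, 2 and 3 held 81, 89 and 75 members, and EC-SAL libraries 1, 2 and 3 held 46, 39 and 44. All 6 samples were taken 2 days after 10 days of epicutaneous sensitization, as the labels word it for both groups, and digested with enzymes, and the tissue entry reads sensitized skin in both groups, so only the treatment entry (OVA-sensitized or control) tells them apart. OVA is the usual short form of ovalbumin, the egg-white protein used as a model allergen. Whether each library came from its own mouse is not given, and p-values therefore cover the library-to-library spread alone, part of which may be technical. The labels' cell type entry reads CD4 for all libraries, whereas 5795 of the kept barcodes were keratinocytes by Krt5 and Krt14 and 6145 were fibroblasts by collagen genes.

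Dendritic cells take up antigen in a tissue, display peptides on MHC molecules and carry them to lymph nodes, where T cells read them. The type 2 lineage is the conventional dendritic cell subset that presents mainly to CD4 T cells, and its development depends on Irf4 and Klf4. In mouse dermis it carries the lectin Mgl2, also called CD301b, and Mgl2-bearing dermal cells are known for their part in priming type 2 helper T cells against allergens. Full activation of such cells runs through NF-kappaB, which switches on inflammatory cytokines, chemokines, CD40 and adhesion molecules.

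The members carried transcripts that the gate did not use and that mark this lineage. Flt3, the receptor that maintains dendritic cells, had a UMI in 20.4 ± 1.6% of EC-OVA and 20.6 ± 8.8% of EC-SAL members (mean ± SD, n = 3 libraries each, as in every share and level below). Irf4 was detected in 27.5 ± 5.2% of EC-OVA and 29.7 ± 6.6% of EC-SAL members, and in 0.279% of EC-OVA and 0.80% of EC-SAL keratinocytes, which serve as the level that free RNA gives. Sirpa, a surface marker of type 2 and not type 1 cells, was detected in 30.1 ± 5.6% of EC-OVA and 19.9 ± 4.3% of EC-SAL members, against 6.96% and 5.60% of keratinocytes. Other genes of the lineage were sparser: Zbtb46 was detected in 7.31 ± 2.11% of EC-OVA and 11.9 ± 5.2% of EC-SAL members, and Itgax in 15.2 ± 4.5% and 13.8 ± 3.6%. In keratinocytes Zbtb46 was detected in 0.446% and 0.325%, and Itgax in 0.111% and 0%. Keratinocyte barcodes had medians of 7505 to 8541 UMIs per library and members 3145 to 3929, so the greater depth lay with the keratinocytes. These transcripts stood above that level in both groups. So did genes better known from macrophages: Mrc1, the mannose receptor, was detected in 41.0 ± 3.4% of EC-OVA and 28.5 ± 3.6% of EC-SAL members, and Cd163, a scavenger receptor, in 21.6 ± 1.9% and 28.6 ± 1.6%, against under 1% of keratinocytes. Lyz2 and Cd14, genes of phagocytes, were common: Lyz2 was detected in 83.1 ± 3.3% of EC-OVA and 97.6 ± 2.6% of EC-SAL members, and Cd14 in 69.6 ± 4.9% and 83.9 ± 2.9%. Fcgr1, a marker of macrophages and monocyte-derived cells, was detected in 3.25 ± 2.57% of EC-OVA and 2.47 ± 2.57% of EC-SAL members. The name cDC2 stands below for the gated barcodes, which these genes do not separate from every cell of those kinds.

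The members differed among themselves in the genes that chose them. Of the 374, 98 carried only 1 of the 3 gate genes, 234 carried 2 and 42 carried all 3. Mgl2 averaged 1788 ± 105 CPM (UMIs per 1000000 of the members' summed UMIs) in EC-OVA and 1587 ± 337 in EC-SAL, and Cd209a averaged 779 ± 39 in EC-OVA and 642 ± 150 in EC-SAL. Ccl17, a chemokine that draws CCR4-bearing T cells, was the uneven gate gene, with 98, 448 and 265 UMIs in EC-OVA libraries 1 to 3 and 268, 210 and 158 in EC-SAL libraries 1 to 3. A gate that left Ccl17 out gave 58.2, 1197 and 761 CPM of Ccl17 in EC-OVA and 1341, 1241 and 808 in EC-SAL, so the groups overlapped (log2 fold -0.80 ± 1.03, ± SE, adjusted p = 0.82). Cd74, the invariant chain that guides MHC class II molecules, averaged 50459 ± 3272 CPM in EC-OVA and 67349 ± 6148 in EC-SAL. In the full gate these genes chose the members, so their levels there are a description with no test. At the edge of the gate, 12, 16 and 7 members in EC-OVA and 4, 3 and 6 in EC-SAL had exactly 2 gate UMIs, while 19, 24 and 15 barcodes in EC-OVA and 7, 8 and 5 in EC-SAL met every other condition with 1.

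Members also varied in genes outside the gate. Among 525 genes with at least 0.5 UMIs per member in every library, the ratio of variance to mean of depth-scaled UMIs, taken as the median over libraries, had a median of 1.63. Cxcl2, a neutrophil chemokine, reached 18.9, Lyz2, the lysozyme of phagocytes, 18.5, Il1b 11.6, Cd14, the co-receptor for bacterial lipopolysaccharide, 10.8, and Ccl2, a monocyte chemokine, 8.46. Abundant genes of general function ranked as high: Malat1, a nuclear RNA, led with 23.2, Tmsb4x and Actb, of the actin skeleton, gave 22.7 and 19.1, and the ferritin chains Ftl1 and Fth1 gave 18.7 and 16.9. Cst3, a protease inhibitor abundant in dendritic cells, gave 20.3.

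cDC2 took a larger share of the recovered barcodes in EC-OVA. They made up 2.11, 2.18 and 2.11% of kept barcodes in EC-OVA libraries 1 to 3 and 0.862, 0.846 and 1.01% in EC-SAL libraries 1 to 3. The groups did not overlap, and the means of 2.13 ± 0.039% and 0.907 ± 0.092% stood in a ratio of 2.35 (two-sided exact permutation p = 0.1, the smallest that 3 against 3 can give). Among the 860 EC-OVA and 410 EC-SAL barcodes high in MHC class II, cDC2 were 28.6 ± 1.5% in EC-OVA and 31.4 ± 0.43% in EC-SAL (p = 0.1, two-sided exact permutation). That order turned round when members with 3 or more UMIs of keratinocyte, fibroblast or T cell genes were not counted as members, an alternative added after the data were seen: 218 remained in EC-OVA and 67 in EC-SAL, or 25.4 ± 0.62% and 16.4 ± 1.6% of MHC class II-high barcodes (p = 0.1, two-sided exact permutation). In the same libraries type 1 dendritic cells numbered 77 in EC-OVA and 15 in EC-SAL, and their share of kept barcodes stood in a ratio of 6.22. Keratinocytes were 15.6 ± 1.3% of kept barcodes in EC-OVA and 28.0 ± 0.30% in EC-SAL. Shares of 1 suspension depend on each other and on the barcodes recovered, so a rise in cDC2 and a loss of other cells cannot be told apart.

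**Figure D1:**
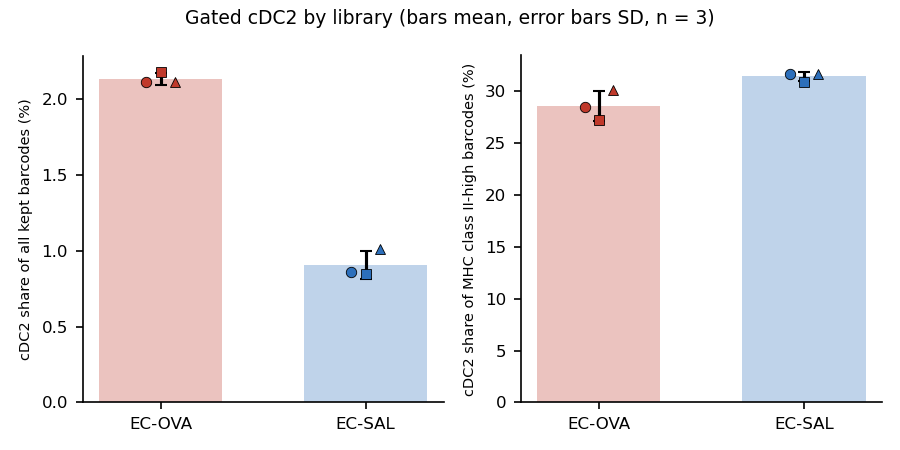
Share of gated cDC2 by library, in percent of all kept barcodes (left) and of barcodes with at least 1% MHC class II UMIs (right), EC-OVA left of EC-SAL; bars are means, error bars SD and points the 3 libraries. The EC-OVA mean of 2.13% stands above the EC-SAL mean of 0.907% on the left, and 28.6% stands below 31.4% on the right.

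For gene expression the UMIs of the members were summed per library, which gave 316907, 351884 and 348455 UMIs in EC-OVA and 192555, 163615 and 178761 in EC-SAL. Of 2884 genes tested, leaving aside the 15 genes of the gate, 61 passed an adjusted p of 0.05 in edgeR's quasi-likelihood test, which is 2.12%. There were 16 higher in EC-OVA (0.555%) and 45 lower (1.56%), and the median log2 fold over all genes was 0.01. An unadjusted p under 0.05 in the same test was reached by 429 of the 2884, in either direction. In all 61 the groups did not overlap, as in 22% of all genes tested. Scaling by library totals in place of TMM moved the median by 0.08 on the log2 scale and gave 27 higher and 30 lower. Leaving out a library changed the counts by more than 1.5 times in several cases: 7 were higher without EC-SAL 1, 10 without EC-SAL 2 and 8 without EC-SAL 3, while 20 were lower without EC-OVA 1, 23 without EC-SAL 1 and 19 without EC-SAL 3. Of 34 called genes named by the rule in the methods, 7 were called under every alternative run that tested them. These were Plac8, Clec10a and Cd209e among the rises, and Plau, Ecm1, Marcksl1 and Cd14 among the falls. Plac8 was tested in 19 of the 20 alternative runs and Plau in 15, the others in all 20.

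**Figure D2:**
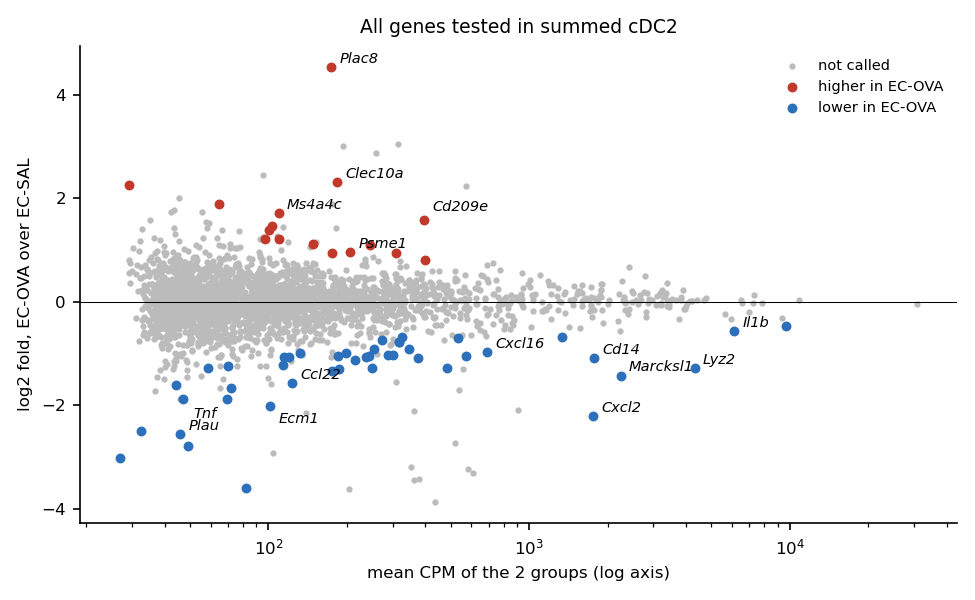
Log2 fold of EC-OVA over EC-SAL (y axis) against mean CPM of both groups (x axis, log scale) for each of the 2884 genes tested in summed cDC2. The 16 genes called higher are red and the 45 called lower blue; Plac8 has the largest rise, at 4.54.

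The largest rise was Plac8, a small cysteine-rich protein that monocytes and lymphoid precursors express (chromosome 5, 100553725 to 100572245, minus strand, mm10). It had 110, 118 and 111 UMIs in EC-OVA libraries 1 to 3 and 0, 6 and 1 in EC-SAL libraries 1 to 3. The member richest in Plac8 held 31, 65 and 22 of them in EC-OVA libraries 1 to 3. In EC-OVA 2 the sum thus came mostly from 1 member. Every EC-OVA library was above every EC-SAL library, with 334 ± 14 CPM against 14.1 ± 19.8 (log2 fold 4.54 ± 0.46, adjusted p = 0.00058). A UMI was seen in 16.5 ± 6.7% of EC-OVA and 2.47 ± 2.57% of EC-SAL members, and in 0.334% and 0.40% of keratinocytes. With each member thinned to 1000 UMIs, which left out 16 EC-OVA and 2 EC-SAL members, the shares were 11.1% and 0.877%. Ms4a4c, a tetraspan protein found in monocytes and induced by interferon, had 55, 63 and 55 UMIs in EC-OVA and 10, 10 and 6 in EC-SAL (1.72 ± 0.27, adjusted p = 0.0032). Ly6c2, the defining surface marker of inflammatory monocytes, had 46, 75 and 46 UMIs in EC-OVA and 12, 3 and 0 in EC-SAL, without passing the test (2.46 ± 0.63, adjusted p = 0.11).

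Plac8 and Ly6c2 lay partly in the same members. In EC-OVA 46 of 245 members had a UMI of either gene and 22 had both, against 6 and 1 of 129 in EC-SAL. By library the share with either was 24.7, 12.4 and 20% in EC-OVA and 4.35, 7.69 and 2.27% in EC-SAL, and the groups did not overlap. These members were deeper, with a median of 5780 UMIs against 3132 in the other EC-OVA members. They held 27.9% of the EC-OVA members' UMIs but 61.8% of those of Ms4a4c, 51.8% of Clec10a, 57.7% of Tcf4, 74.6% of Bcl11a and 83.3% of Irf8, the last 3 being transcription factors known from plasmacytoid and precursor dendritic cells. Most of the 46 had no UMI of Bcl11a, seen in 13 of them, or of Irf8, seen in 8 with 2, 19 and 29 UMIs in EC-OVA libraries 1 to 3. Siglech, a defining marker of plasmacytoid cells, was seen in 2 of the 46 and 2 of the other 199, and the 46 held 9 of its 11 EC-OVA UMIs. Ccr9, a chemokine receptor of plasmacytoid and precursor dendritic cells, was seen in 8 of the 46 and 3 of the 199, with 27 of 31 UMIs in the 46. Fcgr1 was seen in 4 of the 46 and 4 of the 199, and the 46 held 7 of its 14 EC-OVA UMIs. Flt3 was seen in 39.1% of the 46 and 16.1% of the other 199. The inflammatory chemokine Cxcl2 was seen in 10.9% of the 46 and 45.7% of the other 199, in spite of the lower depth of the 199. This split was chosen after the values were seen and is a description.

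Leaving out every member with a Plac8 or Ly6c2 UMI, an alternative added after the data were seen, kept 199 EC-OVA and 123 EC-SAL members and 2281 genes. It gave 4 genes higher and 16 lower, of which 3 and 15 were also called with all members. Clec10a (1.93 ± 0.31, adjusted p = 0.0076) and Cd209e (1.39 ± 0.21, adjusted p = 0.0070) kept their calls. Ms4a4c did not (0.98 ± 0.34, adjusted p = 0.21), nor did the interferon-induced Bst2 (0.19 ± 0.40, adjusted p = 0.90). Among the falls, Cxcl2 (-1.84), Marcksl1 (-1.21), Cd14 (-0.91), Plau (-2.27), Ecm1 (-1.80) and Ccl22 (-1.20) kept theirs. Calls described below that were lost there were Tnf (-1.62, adjusted p = 0.062), Areg (-1.86, 0.066), Clec4e (-1.13, 0.062), Cd40 (-0.96, 0.061), Cxcl16 (-0.68, 0.081), Il1b (-0.41, 0.13) and Nlrp3 (-0.96, 0.14) of the falls. Of the rises, Psmb8 (0.56, adjusted p = 0.21), Psme1 (0.89, 0.088), Bhlhe40 (1.14, 0.064), Vrk1 (0.90, 0.078) and Cenpa (1.25, 0.088) lost theirs. Ebi3 and Ccl20, among the falls below, were not tested there.

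**Figure D3:**
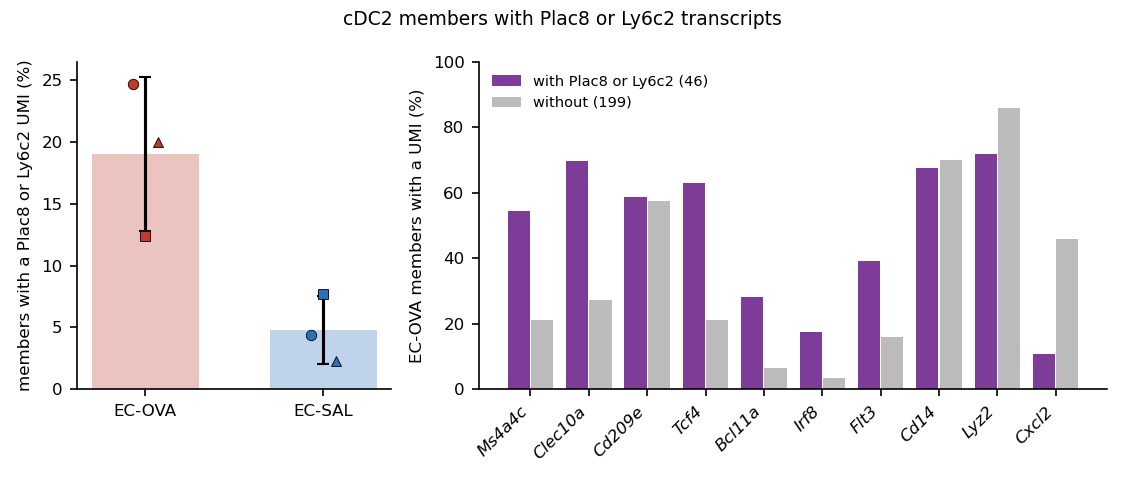
Left, percent of cDC2 members with a Plac8 or Ly6c2 UMI by library, EC-OVA left of EC-SAL (bars means, error bars SD, points libraries). Right, percent of EC-OVA members with a UMI of each gene among the 46 with and the 199 without Plac8 or Ly6c2. Clec10a is at 69.6% and 27.1%, Cxcl2 at 10.9% and 45.7%, and the 46 had the greater depth.

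Of the C-type lectins, receptors that bind sugars on allergens and microbes, Clec10a and Cd209e rose and Clec4e fell. Clec10a, the macrophage galactose lectin (chromosome 11, 70156197 to 70170834, plus strand), had 102, 75 and 136 UMIs in EC-OVA and 15, 9 and 7 in EC-SAL. Scaled to depth, the lowest EC-OVA library lay above the highest EC-SAL library (213 against 77.9 CPM), and the log2 fold was 2.32 ± 0.28 (adjusted p = 0.00063). Clec10a is the neighbour and close paralog of Mgl2, and reads common to the pair may have been split or dropped in the authors' counting. Cd209e, a relative of DC-SIGN (chromosome 8, 3847965 to 3854309, minus strand), had 189, 178 and 248 UMIs in EC-OVA and 42, 36 and 23 in EC-SAL (1.59 ± 0.21, adjusted p = 0.00092), with the same limit towards its paralog Cd209a. It was detected in 57.8 ± 6.9% of EC-OVA and 28.5 ± 5.5% of EC-SAL members. Clec4e, also called Mincle, a receptor for fungal and mycobacterial glycolipids, fell, with 142, 114 and 83.2 CPM in EC-OVA against 275, 171 and 330 in EC-SAL (-1.29 ± 0.26, adjusted p = 0.017; 0.057 to 0.11 without EC-OVA 3, EC-SAL 1 or EC-SAL 3). Over the list of lectins and pattern receptors, which does not hold Clec10a, 1 of 14 tested genes rose and 3 fell (Clec4e, Cd14 and Nlrp3), with a median log2 fold of -0.14. Among all genes tested 0.555% rose and 1.56% fell.

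Cd14 (chromosome 18, 36725067 to 36726798, minus strand) had 1180, 995 and 1392 CPM in EC-OVA and 2560, 2390 and 2171 in EC-SAL. No EC-OVA library reached an EC-SAL library (-1.08 ± 0.14, adjusted p = 0.00087). Nlrp3, the sensor of the inflammasome that matures IL-1 beta, averaged 71.4 ± 15.4 CPM in EC-OVA and 157 ± 63 in EC-SAL (-1.22 ± 0.30, adjusted p = 0.048). The Nlrp3 call was lost without each library but EC-SAL 2 (adjusted p up to 0.23) and in DESeq2 (0.12).

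Among the chemokines 3 fell in EC-OVA cDC2. Cxcl2 (chromosome 5, 90903871 to 90905938, plus strand) had 461, 563 and 936 CPM in EC-OVA libraries 1 to 3 and 2503, 3465 and 2584 in EC-SAL libraries 1 to 3. The highest EC-OVA library was below the lowest EC-SAL library by more than the range within EC-OVA (-2.21 ± 0.25, adjusted p = 0.0032). The call was lost without EC-OVA 2 (-2.13, adjusted p = 0.11). Ccl22, which like Ccl17 binds CCR4 and lies beside it on chromosome 8 (94745590 to 94751699, plus strand), had 47.3, 79.6 and 66.0 CPM in EC-OVA and 182, 177 and 190 in EC-SAL (-1.57 ± 0.25, adjusted p = 0.0032). Without Ccl17 in the gate the Ccl22 value was -2.02 ± 0.72 (adjusted p = 0.27). Cxcl16, a membrane-bound ligand of CXCR6 on T cells, averaged 482 ± 101 CPM in EC-OVA and 893 ± 64 in EC-SAL (-0.97 ± 0.18, adjusted p = 0.012; 0.063 without EC-OVA 1 and 0.068 without EC-SAL 1). Ccl20, a ligand of CCR6 outside that list, fell too, but its level in keratinocytes was more than 10 times that in cDC2. Ccl5, a chemokine for T cells and monocytes, had 12.6, 136 and 37.3 CPM in EC-OVA and 483, 458 and 1041 in EC-SAL, without passing the test (-3.45 ± 0.89, adjusted p = 0.19, and 0.029 in DESeq2). Of the 13 listed chemokines tested, Cxcl2, Ccl22 and Cxcl16 fell and 0 rose, with a median log2 fold of -1.01 against 0.01 over all genes. Among all genes tested 1.56% fell and 0.555% rose.

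Cytokines of the innate response moved the same way in 4 cases. Tnf had 8, 8 and 15 UMIs in EC-OVA and 17, 25 and 15 in EC-SAL, or 30.3 ± 11.1 CPM against 108 ± 39 (-1.88 ± 0.35, adjusted p = 0.011, and 0.052 without EC-SAL 2). Ebi3, the shared subunit of IL-27 and IL-35, averaged 35.2 ± 7.4 CPM in EC-OVA and 109 ± 43 in EC-SAL (-1.67 ± 0.34, adjusted p = 0.017; 0.071 without EC-OVA 1, 0.086 without EC-SAL 2 and 0.056 without EC-SAL 3). Areg, an epidermal growth factor receptor ligand, averaged 20.7 ± 11.6 CPM in EC-OVA and 73.7 ± 21.6 in EC-SAL (-1.88 ± 0.42, adjusted p = 0.028; 0.11 to 0.12 without EC-OVA 1, EC-OVA 2, EC-SAL 1 or EC-SAL 2, and 0.060 in DESeq2). Il1b, the most abundant of them, had 5390, 4507 and 5435 CPM in EC-OVA and 6912, 8086 and 6288 in EC-SAL, a small fall (-0.56 ± 0.12, adjusted p = 0.023) that was lost without EC-OVA 1, EC-OVA 3, EC-SAL 1 or EC-SAL 2 (0.066 to 0.11) and in DESeq2 (0.17). Of the 10 cytokines tested these 4 fell and 0 rose, against 1.56% and 0.555% of all genes tested. In DESeq2 2 of the 10 fell and 0 rose. Il6 did not pass the test (161 ± 54 CPM in EC-OVA and 163 ± 30 in EC-SAL, adjusted p = 0.89). Il12b, a subunit of IL-12 and IL-23, was at 0 UMIs in EC-OVA against 2, 4 and 2 in EC-SAL, which lay in 4 EC-SAL members. With EC-OVA set to a floor of 3 counts over the group it was 5.07-fold lower, which leaves out the error of the EC-SAL count. Il12b was too sparse for the main test.

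**Figure D4:**
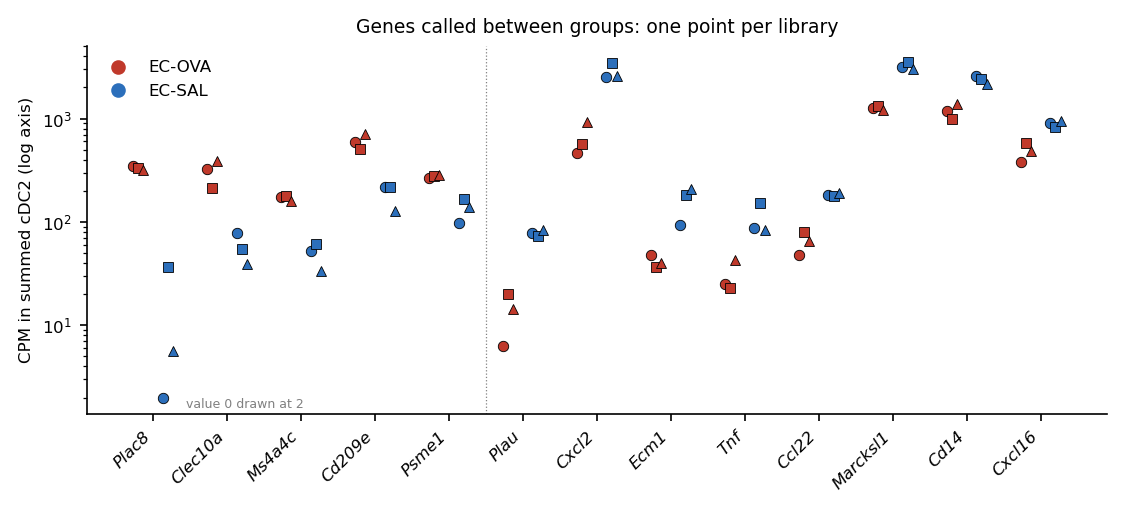
CPM in summed cDC2 (log axis) of 13 genes called between groups, each point a library, with EC-OVA (red) left of EC-SAL (blue) for each gene and circles, squares and triangles for libraries 1, 2 and 3; a value of 0 is drawn at 2. The 5 genes left of the dotted line are higher in EC-OVA and the 8 right of it lower, with no overlap between groups.

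Further falls were picked by hand after their values were seen, outside the rule for named genes, and form no list with a test. Icam1, an adhesion molecule for T cells, averaged 297 CPM in EC-OVA and 674 in EC-SAL (-1.27, adjusted p = 0.0032). Tnfaip2 (-1.27, adjusted p = 0.0032), the mitochondrial superoxide dismutase Sod2 (-1.02, adjusted p = 0.0057) and the survival gene Bcl2a1b (-1.09, adjusted p = 0.0074) were lower as well; Bcl2a1b has near-identical copies, so its count is uncertain. Nfkbib, an inhibitor of NF-kappaB, and Tnip1, a brake on the same pathway, gave -0.91 (adjusted p = 0.038) and -1.24 (adjusted p = 0.048). Nfkbia, the best-known NF-kappaB inhibitor, had 1864 ± 322 CPM in EC-OVA and 2604 ± 477 in EC-SAL and did not pass (-0.57 ± 0.15, adjusted p = 0.069).

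The promoters of called genes were searched for 3 motifs, chosen after the calls were seen, the first that of NF-kappaB. The window ran from 250 bases before to 50 after the start (RefSeq, GRCm38.p6), and both strands were read. A gene counted when any of its listed promoters held the motif. A kappaB motif was in 7 of 35 falling genes with a promoter in the table (20%), namely Ccl20, Cxcl2, Ebi3, Nlrp3 (in 1 of its 2 promoters), Sod2, Sqstm1 and Tnip1. It was in 1 of 13 rising genes (Bst2), in 7.22% of 2314 tested genes and in 4.53% of 32544 promoters. The matches, in capitals below, begin 97 bases before the start in Cxcl2, where 2 matches overlap by all but 1 base, and 44 bases before it in Ebi3.
Cxcl2, chr5:90903649-90903948, plus strand: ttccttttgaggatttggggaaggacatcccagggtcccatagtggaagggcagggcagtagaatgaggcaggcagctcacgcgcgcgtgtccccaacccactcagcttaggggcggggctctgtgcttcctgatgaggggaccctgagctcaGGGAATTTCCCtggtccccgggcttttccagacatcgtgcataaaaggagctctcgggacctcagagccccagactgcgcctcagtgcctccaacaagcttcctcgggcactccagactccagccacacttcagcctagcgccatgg
Ebi3, chr17:55952373-55952672, plus strand: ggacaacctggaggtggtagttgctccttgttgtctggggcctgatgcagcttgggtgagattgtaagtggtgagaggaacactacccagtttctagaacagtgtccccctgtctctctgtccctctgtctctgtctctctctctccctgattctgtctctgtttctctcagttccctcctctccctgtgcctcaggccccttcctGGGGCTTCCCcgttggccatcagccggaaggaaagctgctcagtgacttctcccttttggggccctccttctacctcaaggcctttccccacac

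Among the rising genes the letters TTC and GAA spaced by 4 bases, a form bound by STAT6 downstream of the IL-4 receptor, were in 4 of 13 (Bgn, Cd209e, Plac8 and Vrk1), against 3 of 35 falling genes, 6.05% of tested genes and 6.98% of all promoters. In Plac8 it was in 1 of 2 listed promoters and in Vrk1 in 1 of 4. GAAA repeated after 2 bases, the core of an interferon-response element, was in 2 of 13 (Bst2 and Psme1), 0 of 35, 3.98% and 3.45%. Cd209e is shown for the TTC and GAA pair, which begins 79 bases before the start, and Psme1 for the GAAA repeat on either strand, which begins at base 10 after it. A match is a description of letters and not of binding.
Cd209e, chr8:3854237-3854536, minus strand: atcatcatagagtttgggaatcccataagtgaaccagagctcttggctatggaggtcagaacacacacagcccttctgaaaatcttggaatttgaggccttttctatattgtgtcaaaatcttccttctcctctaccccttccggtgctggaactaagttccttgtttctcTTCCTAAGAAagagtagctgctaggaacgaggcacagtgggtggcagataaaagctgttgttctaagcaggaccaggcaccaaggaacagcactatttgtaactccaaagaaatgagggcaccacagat
Psme1, chr14:55578244-55578543, plus strand: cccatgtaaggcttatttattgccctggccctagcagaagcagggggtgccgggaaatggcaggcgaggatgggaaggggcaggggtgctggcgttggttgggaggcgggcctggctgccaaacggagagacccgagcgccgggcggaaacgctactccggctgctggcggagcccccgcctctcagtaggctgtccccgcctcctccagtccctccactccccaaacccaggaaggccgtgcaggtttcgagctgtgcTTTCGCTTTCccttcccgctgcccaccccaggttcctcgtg

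Of the genes of the mature, migrating state, 3 of 13 tested fell in these non-migratory cells, against 1.56% of all genes tested. Marcksl1, an actin-regulating protein raised in maturing dendritic cells (chromosome 4, 129513581 to 129515985, plus strand), had 1269, 1333 and 1200 CPM in EC-OVA and 3173, 3502 and 2982 in EC-SAL. The spread within each group was small beside the gap, and Marcksl1 had the smallest adjusted p of the genes called (-1.42 ± 0.13, 3.8e-05). A UMI of it was seen in 82.2 ± 2.2% of EC-OVA and 96.8 ± 1.7% of EC-SAL members. The others were Ccl22 and Ebi3, 0 of the list rose, and its median log2 fold was -0.41. The gate removed members with 3 or more UMIs of Ccr7 and Fscn1, so the most mature cells of both groups were not included.

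Of 7 costimulatory and checkpoint genes tested, 1 fell and 0 rose in edgeR, against 1.56% and 0.555% of all genes tested. In DESeq2 2 fell and 0 rose. At an unadjusted p under 0.05 in edgeR 3 were lower and 1 was higher. Cd40, which receives help from T cells, had 107, 134 and 178 CPM in EC-OVA and 254, 281 and 330 in EC-SAL (-1.12 ± 0.22, adjusted p = 0.013; 0.065 without EC-OVA 1 and 0.068 without EC-SAL 3). Cd86 averaged 188 ± 22 CPM in EC-OVA and 221 ± 38 in EC-SAL (-0.31 ± 0.20, adjusted p = 0.50), and Cd80 67.5 ± 19.0 and 64.4 ± 26.3 (-0.01 ± 0.34, adjusted p = 0.99). Pdcd1lg2, which encodes the checkpoint ligand PD-L2 and is known as an IL-4-induced gene, had 14, 7 and 17 UMIs in EC-OVA and 0, 1 and 0 in EC-SAL. Every EC-OVA library was above every EC-SAL library, and the pooled ratio was 20 (95% exact interval 3.38 to 810, for counting error only). Pdcd1lg2 failed the filter on low counts, and with all genes of at least 20 UMIs tested it gave 3.93 ± 0.88 (adjusted p = 0.026). Tnfsf4, which encodes OX40L, had 1 UMI in EC-OVA and 0 in EC-SAL, so no difference was detectable at this depth.

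Some genes of the MHC class I pathway and interferon response rose in edgeR's test. Psmb8, a subunit of the immunoproteasome that cuts peptides for class I, had 505, 511 and 542 CPM in EC-OVA and 317, 269 and 252 in EC-SAL (0.81 ± 0.17, adjusted p = 0.018). Psme1, a subunit of the proteasome activator PA28, averaged 276 ± 7 CPM in EC-OVA and 135 ± 34 in EC-SAL (0.96 ± 0.21, adjusted p = 0.025). Bst2, also called tetherin, averaged 236 ± 20 CPM in EC-OVA and 116 ± 5 in EC-SAL (0.94 ± 0.20, adjusted p = 0.025). All 3 lost their calls without each of several libraries (adjusted p up to 0.16 for Psme1), among them EC-SAL 1 and EC-SAL 3. They also lost them in DESeq2 (adjusted p = 0.095 for Psmb8, 0.13 for Psme1 and 0.18 for Bst2). In the class I list 2 of 9 tested genes rose and 0 fell (median 0.05), against 0 rises and 0 falls in DESeq2. In the list of interferon-stimulated genes 2 of 8 (Bst2 and Ms4a4c) rose and 0 fell (median 0.25), against 1 rise and 0 falls in DESeq2. Among all genes tested 0.555% rose and 1.56% fell in edgeR. Of 8 class II presentation genes outside the gate 0 passed in edgeR and 0 in DESeq2, and 1 had an unadjusted p under 0.05. That was Ifi30, the thiol reductase that opens antigens for class II loading, with 1326 ± 171 CPM in EC-OVA and 873 ± 77 in EC-SAL (0.51 ± 0.14, adjusted p = 0.080).

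Genes known to answer IL-4 or IL-13 gave 1 rise, Clec10a, and 0 falls among 11 tested, with a median of 0.46 and 9 of 11 values above 0. At an unadjusted p under 0.05 in edgeR, 6 of the 11 were higher and 0 lower, against 429 of all 2884 genes in either direction. The receptors did not pass the test. Il4ra averaged 57.9 ± 24.6 CPM in EC-OVA and 35.1 ± 19.1 in EC-SAL (0.60 ± 0.44, adjusted p = 0.60), Il13ra1 63.9 ± 19.8 and 74.0 ± 20.2 (-0.27 ± 0.34, adjusted p = 0.81), and Crlf2, the receptor chain for the epithelial cytokine TSLP, 181 ± 3 and 234 ± 11 (-0.45 ± 0.18, adjusted p = 0.24). Of 21 cytokine receptors tested 0 passed in edgeR and 0 in DESeq2, and 3 had an unadjusted p under 0.05, all 3 lower in EC-OVA.

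Irf4 and Klf4, transcription factors of the lineage, and the receptor gene Flt3 did not pass the test. Irf4 averaged 105 ± 25 CPM in EC-OVA and 100 ± 24 in EC-SAL (0.01 ± 0.27, adjusted p = 0.99), Klf4 136 ± 39 and 121 ± 45 (0.11 ± 0.29, adjusted p = 0.92), and Flt3 68.5 ± 10 and 59.0 ± 23 (0.16 ± 0.33, adjusted p = 0.89). Bhlhe40, which restrains IL-10 in activated immune cells, was the single rise among 19 factors tested (207 ± 70 CPM in EC-OVA and 90.4 ± 13 in EC-SAL, 1.11 ± 0.27, adjusted p = 0.046), and that call was lost without each library but EC-OVA 2 (adjusted p up to 0.19) and in DESeq2 (0.16). At an unadjusted p under 0.05 in edgeR, 1 of the 19 factors was higher and 6 were lower, against 429 of all 2884 genes in either direction. Of the 16 tested cDC2 identity genes outside the gate only Clec10a passed.

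Genes of secreted proteins were also among the falls. Plau, the urokinase that activates plasminogen, had 2, 7 and 5 UMIs in EC-OVA and 15, 12 and 15 in EC-SAL (-2.55 ± 0.41, adjusted p = 0.0032). Ecm1, an extracellular matrix glycoprotein, had 47.3, 36.9 and 40.2 CPM in EC-OVA and 93.5, 183 and 207 in EC-SAL (-2.02 ± 0.32, adjusted p = 0.0032). Both groups were fully apart in these genes. A Plau UMI was seen in 4.10 ± 1.47% of EC-OVA and 11.6 ± 3.8% of EC-SAL members. Among keratinocytes it was seen in 32.42% in EC-OVA and 32.45% in EC-SAL. Ecm1 was seen in 11.7 ± 4.7% of EC-OVA and 33.6 ± 8.7% of EC-SAL members, and in 29.0% and 35.2% of keratinocytes. The part of keratinocyte transcripts in these falls was not tested. Lyz2 averaged 2613 ± 758 CPM in EC-OVA and 6019 ± 1120 in EC-SAL (-1.28 ± 0.25, adjusted p = 0.048). That call held in 11 of 20 alternative runs and was lost without EC-OVA 2, EC-SAL 1 or EC-SAL 3 (0.16 to 0.26). It was also lost with MHC class II genes at 3% or more, with no C1q UMI and without the highest doublet scores. The filter of at least 20 UMIs and the limits of 500 genes and 10% mitochondrial UMIs lost it too.

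Transcripts of other cell types differed between the groups in these sums. All 14 keratinocyte markers together were 0.178, 0.0642 and 0.204% of member UMIs in EC-OVA and 0.594, 0.196 and 0.620% in EC-SAL, and each of the 11 tested was lower in EC-OVA, with 1 call in edgeR (Krt1), 5 in DESeq2 and 6 at an unadjusted p under 0.05. All 12 fibroblast markers together were 0.363, 0.588 and 0.118% in EC-OVA and 0.151, 0.125 and 0.0285% in EC-SAL, and the 8 tested were higher, with 0 calls in edgeR, 0 in DESeq2 and 0 at an unadjusted p under 0.05. In both lists 0 markers were without a UMI in either group. Ccl20, Trim29 and Krt1 among the falls and Bgn among the rises were over 10 times higher in keratinocytes or fibroblasts than in cDC2. Macrophage markers were 0.164, 0.0955 and 0.110% in EC-OVA and 0.158, 0.0880 and 0.167% in EC-SAL, and their levels overlapped. The 17 monocyte markers in the count table gave 1.07, 1.24 and 0.978% in EC-OVA and 1.17, 1.06 and 1.40% in EC-SAL, with Plac8 and Ms4a4c higher and Lyz2 and Clec4e lower. Leaving out members with 3 or more UMIs of keratinocyte, fibroblast or T cell genes kept 218 EC-OVA and 67 EC-SAL members, and 14 genes were higher and 44 lower, 7 and 27 of them called with all members. There Cxcl2 gave -2.30 (adjusted p = 0.087) and Ccl22 -1.10 (adjusted p = 0.17), so both lost their calls. Clec4e (-1.20, adjusted p = 0.20), Bhlhe40 (1.19, 0.096) and Cenpa (1.45, 0.095) lost theirs as well, as did Nlrp3, Psmb8 and Psme1. The part of these transcripts in the other results was not tested. Member barcodes shared between libraries numbered 0, and 2, 4 and 4 members in EC-OVA and 6, 1 and 5 in EC-SAL had doublet scores in the top range.

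The response of cDC2 was set against that of C1q macrophages in the same libraries, defined by at least 5 C1q UMIs (346 barcodes in EC-OVA and 375 in EC-SAL). Of the 16 genes higher in cDC2, 13 were tested in macrophages and 4 rose there too; of the 45 lower, 42 were tested, 9 fell and 1 rose (Cxcl16). On their own 94 of 3467 macrophage genes were called (2.71%). Over 4086 genes the test of the difference itself called 27 (0.661%), 7 with a more positive and 20 with a more negative response in cDC2. Of the genes called in cDC2, 6 were among them, including Clec10a of the rises and Ecm1, Cxcl16, Emb and Cd14 of the falls. Cxcl16 fell in cDC2 and rose in macrophages (0.80, adjusted p = 0.011), a difference of -1.79 ± 0.21 (adjusted p = 1.0e-04). Clec10a rose by 2.32 in cDC2 and gave 0.66 in macrophages (adjusted p = 0.11), a difference of 1.65 ± 0.32 (adjusted p = 0.022; 0.067 without EC-SAL 2 and 0.18 without EC-SAL 3). Cxcl2 fell in both cell types (-2.21 in cDC2 and -2.18 in macrophages), and the difference of -0.09 ± 0.18 did not pass (adjusted p = 0.95). The counts moved with single libraries: 2 genes were more positive without EC-OVA 2, EC-SAL 1 or EC-SAL 3, 3 without EC-SAL 2 and 13 without EC-OVA 3, and 10 were more negative without EC-SAL 1 or EC-SAL 2 and 9 without EC-SAL 3.

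**Figure D5:**
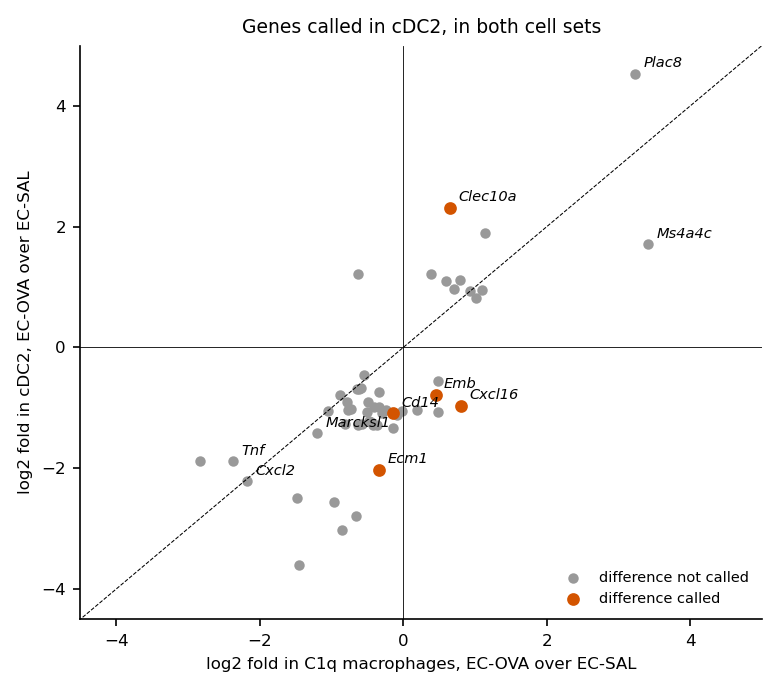
Log2 fold of EC-OVA over EC-SAL in cDC2 (y axis) and in C1q macrophages (x axis) for 54 of the genes called in cDC2 and tested in both; the dashed line marks equal folds. Orange points are the 5 plotted genes whose difference between cell types was called; Cxcl16 lies below 0 in cDC2 and above 0 in macrophages.

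Set against all other kept barcodes, the cDC2 response differed in 312 of 14095 genes (2.21%), 102 more positive (44 without EC-OVA 2, 66 without EC-OVA 3 and 48 without EC-SAL 3) and 210 more negative (129 without EC-OVA 2). All other barcodes mix many cell types whose shares differed between the groups, so their own change joins composition and expression. On their own 6904 of 15003 genes were called there (46%). Of the 45 genes lower in cDC2, 24 were higher in all other barcodes and 10 lower, and the difference was called for 38. Il1b fell by 0.56 on the log2 scale in cDC2 and gave 1.31 in the rest, a difference of -1.80 ± 0.10 (adjusted p = 3.7e-68). Cd14 gave -1.08 in cDC2 and 0.89 in the rest (difference -1.95 ± 0.14, adjusted p = 4.9e-43), and Cxcl2 -2.21 and 0.84 (difference -3.02 ± 0.13, adjusted p = 6.9e-71). For Cxcl2 the SE of the difference was smaller than that of the cDC2 response alone. The p-values of these differences may therefore not carry the full spread between libraries. Of the 16 genes higher in cDC2, 11 were higher in the rest as well. Plac8 rose by more in cDC2 (difference 2.28 ± 0.49, adjusted p = 0.00042).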

How the data were processed

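Single-cell suspensions of Balb/c skin were run on 10x Chromium 3' v2, and UMI counts per gene and barcode were deposited by the authors, made with Cell Ranger 3.1.0 per the file headers and with STAR and mm10 per the submitters' processing notes. Members of the gate, lists and tests were chosen with earlier results of these data known. UMIs were summed per library and tested with edgeR 4.0.16 in R 4.3.3 (quasi-likelihood, TMM, filterByExpr, robust), with Benjamini-Hochberg adjustment over all genes tested; DESeq2 1.42.0 was an alternative, and ± after a log2 fold is a standard error. The difference between cell sets was an interaction with library as block. Shares were compared by two-sided exact permutation (scipy 1.17.1). Named genes were the 12 largest called rises and falls with no overlap and at least 50 CPM, up to 4 called members of each list (or the 2 of smallest p), the 6 largest differences each way in each interaction, and fixed genes. Scrublet doublet scores (expected 0.8% per 1000 barcodes) were used only as an alternative. The list symbols Marchf1, Amica1, Clec7a, Aldoa and Ly6a2 had no row. Coordinates are GENCODE M21, and intervals cover counting error only. Libraries held 25350813 to 33650630 UMIs, and 29.9 to 35.9% of barcodes were left out. In simulated cDC2 sums of 2714 genes the test recovered 71% of changes of 1 on the log2 scale and 90% of 1.5, with 9 unchanged genes called. Changes were put only into genes above 50 CPM in EC-SAL, so recovery of sparser genes was not simulated. A few genes covered by the naming rule are not reported here.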

Additional observations from a re-analysis of the deposited data

Results flagged for a closer look

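For the following 21 genes the test of the difference found the EC-OVA response in cDC2 unlike that in another cell set, at an adjusted p under 0.05 in edgeR's quasi-likelihood test.

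Against C1q macrophages, the log2 response in cDC2 was more positive by 2.54 for Cdkn2d, an inhibitor of cell-cycle kinases, by 2.12 for Stmn1, a microtubule regulator, by 2.04 for Nupr1, by 1.96 for the chemokine Ccl2 and by 1.65 for the lectin Clec10a. With the highest doublet scores left out, Nupr1 gave 0.30 (adjusted p = 0.92) and Ccl2 1.12 (adjusted p = 0.68). The response was more negative in cDC2 for Ccl5 (-3.46), Nrg1, a growth factor (-2.49), Runx3, a transcription factor (-2.35), Cxcl16 (-1.79) and Ctsh, a lysosomal protease (-1.78).

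Against all other kept barcodes, the response in cDC2 was more positive for Ube2c, a cell-cycle gene (2.52), Plac8 (2.28), Rcn3 (2.26), Bcl11a (2.10), Hbegf, a growth factor (2.09), and Cnp (1.72). Ube2c had 4, 30 and 57 UMIs in EC-OVA cDC2 and 1, 3 and 5 in EC-SAL cDC2, so the EC-OVA libraries differed widely. Rcn3 had 55 UMIs in EC-OVA and 3 in EC-SAL. It was more negative for Cldn4 (-3.84) and Cnfn (-3.49), both genes of keratinocytes, Cxcl2 (-3.02), Rnase6 (-3.02) and Klk7, a skin protease (-12.5). The value of Klk7 is a fitted one that depends on the prior count and is no bound: cDC2 held 0 Klk7 UMIs in EC-OVA and 31 in EC-SAL. With EC-OVA set to a floor of 3 counts over the group it was 19.65-fold lower, which leaves out the error of the EC-SAL count. Those 31 UMIs lay in 3 of 129 EC-SAL members, 1, 0 and 2 in libraries 1 to 3.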

How the results depend on the processing

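Genes higher in EC-OVA cDC2 numbered 16, against 7 in DESeq2, 28 with at least 20 UMIs, 27 with library totals, 10 with MHC class II genes at 3% or more, 102 with no filter, and 4 without Plac8 or Ly6c2 members. Genes lower numbered 45, against 27 with at least 4 gate UMIs, 28 with MHC class II genes at 3% or more, 102 with no filter, 69 without the highest doublet scores and 16 without Plac8 or Ly6c2 members. Leaving out 1 library gave 7 to 20 higher and 19 to 58 lower. For the difference from macrophages it gave 2 to 13 more positive and 9 to 20 more negative, and for that from all other barcodes 44 to 78 and 129 to 209. The cDC2 share of MHC class II-high barcodes differed by -2.82 percentage points, and by 8.98 with members carrying other cell types' genes left out of the members but not of the denominator. It ranged from -3.57 to -2.12 without 1 library, and the share of kept barcodes from 1.19 to 1.28. The cause of these changes was not tested. Over all gene-level repeats with another setting, 0 gene values reversed, 228 lost a call, 29 gained one and 1495 stayed on their side of the threshold.

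With the replicate number as a block, 23 genes were higher and 49 lower, and Cenpa (adjusted p = 0.059) and Lyz2 (0.15) lost their calls while Col1a1 and Hbegf gained one. Same-numbered libraries correlated at 0.18, 0.027 and 0.030 over 2183 genes, and not every library correlated best with its own number. With 3 libraries per group these values cannot decide whether same-numbered libraries share more than a number. Depth limits sparse genes most: sums held 163615 to 351884 UMIs.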

Other observations

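The cell-cycle list gave 1 rise, Cenpa, a centromere protein (adjusted p = 0.20 in DESeq2, which gave 0 calls), and 0 falls among 10 tested genes, with a median log2 fold of 0.42, and 2 of the 10 higher and 1 lower at an unadjusted p under 0.05. Of 11 genes of glycolysis and hypoxia 0 passed in edgeR and 0 in DESeq2, with 2 higher at an unadjusted p under 0.05 and a median of 0.16. Of 23 genes known to respond to tissue dissociation 0 passed in edgeR and 0 in DESeq2, with 3 lower at an unadjusted p under 0.05 and a median of -0.20. Over all 2884 genes tested, 429 had an unadjusted p under 0.05 in edgeR, in either direction.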
